A study of Mus musculus with 10 samples.

Results

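The genes described here encode the subunits of the proteasome and the proteins that activate, inhibit or assemble it. They were taken by symbol: every gene whose symbol starts with Psma, Psmb, Psmc, Psmd, Psme, Psmf or Psmg followed by a digit, which gave 51 of the 18493 genes in the count table. By role they were 7 alpha and 7 beta subunits of the 20S core, 5 immunoproteasome or tissue-specific core subunits, 9 subunits of the 19S base, 8 of the 19S lid, 6 activators or inhibitors, 7 assembly chaperones, and 2 genes named for an interaction with a proteasome protein. Of these, 48 had enough reads to be tested.

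The study measured mRNA in mouse oocytes in 3 groups, to ask how the transcripts of the spermidine group compare with those of aged and young oocytes. The 4 spermidine libraries carry the treatment label rescue; spermidine is a natural polyamine. The 3 aged libraries and the 3 young libraries carry no added agent in their titles; the treatment label of the aged ones reads only treatment and that of the young ones control. All 10 are described as germ cells from the ovary, with no genetic change named in any group. The labels do not give the age or strain of the mice, the dose or route of spermidine, the stage of the oocytes or the number of cells in a library, and they do not say whether replicates came from separate animals. P-values here therefore reflect variation among the sequenced libraries, some of which may be technical. Libraries were made by Smart-seq2, which primes reverse transcription on the poly(A) tail and amplifies the cDNA.

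The proteasome is the protease that degrades proteins tagged with ubiquitin. Its 20S core is a barrel of stacked rings, in which outer alpha rings gate the entry and inner beta rings carry the cutting sites, and the 19S cap on its end recognises ubiquitin with its lid and base, removes it and unfolds the substrate with a ring of ATPases. Oocytes store mRNA while they grow and then stop transcription until after fertilization, and they need the proteasome to degrade cyclin B and securin at the meiotic divisions.

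Libraries held 24222201 to 28730822 counts and 15303 to 15689 genes with at least 1 count. The 12 oocyte markers, among them the zona pellucida genes and Gdf9, were all tested and summed to 26940 to 42880 CPM, the counts relative to a library total scaled by the trimmed mean of M-values (TMM) and expressed per 1000000. The 12 granulosa and cumulus markers summed to 20.9 to 23.6 CPM in spermidine, 18.9 to 22.7 CPM in aged and 18.6 to 24.7 CPM in young libraries, with 8 of the 12 under 1 CPM in every library. Among the 5 of them tested, 2 were higher in aged than in young oocytes: Fshr, the FSH receptor (1.79 on the log2 scale, SE 0.41, edgeR adjusted p = 0.0125; 1.10 to 2.50 CPM in aged and 0.311 to 0.646 CPM in young libraries), and the nuclear receptor Nr5a2 (0.61, SE 0.20, edgeR adjusted p = 0.0482), which was also higher in spermidine than in young oocytes (0.78, SE 0.185, edgeR adjusted p = 0.0297). Cyp19a1 and Cyp11a1 stood at -0.43 and -0.72 in aged against young and did not pass. The part of granulosa RNA in the results on the proteasome genes was not tested. Aged replicate 1 stood apart from the other aged libraries. On log2 CPM it correlated at 0.966 and 0.968 with them, while they correlated at 0.986 with each other. Its genes were higher the longer their transcripts (Pearson r across genes 0.399, against 0.137 in spermidine replicate 1 and -0.202 to 0.076 in the other libraries). Spermidine replicates 1 and 4 correlated nearly as low, at 0.969. Counts rose with GC content in aged replicates 2 and 3 (r = 0.25 and 0.368, against -0.248 to 0.193 in the other libraries). The proteasome members have short mRNAs, with a median of 1476 bases against 2825 bases over all genes tested, and aged replicate 1 was the lowest of the 10 libraries for 22 of the 48 members. Counts are therefore also given without aged replicate 1 and spermidine replicate 1, and with length and GC trends of each library removed.

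By edgeR's quasi-likelihood test with an adjusted p under 0.05, 13 of the 48 tested members had fallen in aged relative to young oocytes. That is 27.1%, against 8.06% of all genes tested, and 0 had risen, against 9.71%. The 13 fallen genes included 5 of 7 alpha subunits, 2 of 7 constitutive beta subunits and the inducible subunit Psmb10 of the core. The rest were the core chaperone Psmg1, the base chaperones Psmd10 and Psmd5, and 2 of 8 lid subunits, with none of the 9 base subunits. Psmb10 had enough reads to be tested through its young libraries alone. The count of 13 became 3 without young replicate 1, 4 without young replicate 3 and 6 with length and GC trends removed. Over all genes the lower calls, 993 as reported, became 437, 570 and 970 in these settings. In spermidine oocytes 1 member, the core chaperone Psmg1, was higher than in aged oocytes, a share of 2.1% against 2.42% of all genes tested, and this call was kept in 3 of 18 other settings. The alpha subunit Psma1 and the base chaperone Psmd5 were lower in spermidine than in young oocytes, a share of 4.2% against 1.92% of all genes tested. The call was kept in 7 of 18 other settings for Psma1 and in 10 of 18 for Psmd5. In bulk samples, fewer cells of a type and less RNA per cell cannot be told apart.

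Promoters of 4 of the fallen genes are printed because they cover both rings of the core and its assembly, and windows with and without the motifs marked. RefSeq gave a window of 250 bases before to 50 bases after the transcription start for 43 of the 51 members, some with more than 1 start, 47 windows in all. Capitals mark the antioxidant response element core TGACNNNGC, to which the proteasome gene activators Nfe2l1 and Nfe2l2 can bind, the CCAAT box and the GC box GGGCGG, each on either strand. Sequences are from RefSeq on GRCm38.p6, 5′ to 3′ on the strand of the gene.
Psma7 (chr2:180042415-180042714, minus strand): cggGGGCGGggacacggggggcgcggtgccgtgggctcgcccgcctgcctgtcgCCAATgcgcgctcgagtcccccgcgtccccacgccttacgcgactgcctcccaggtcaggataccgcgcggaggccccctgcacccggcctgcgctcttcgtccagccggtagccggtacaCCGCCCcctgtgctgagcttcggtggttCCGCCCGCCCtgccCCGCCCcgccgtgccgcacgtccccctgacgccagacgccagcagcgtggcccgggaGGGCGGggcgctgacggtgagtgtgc
Psma1 (chr7:114276067-114276366, minus strand): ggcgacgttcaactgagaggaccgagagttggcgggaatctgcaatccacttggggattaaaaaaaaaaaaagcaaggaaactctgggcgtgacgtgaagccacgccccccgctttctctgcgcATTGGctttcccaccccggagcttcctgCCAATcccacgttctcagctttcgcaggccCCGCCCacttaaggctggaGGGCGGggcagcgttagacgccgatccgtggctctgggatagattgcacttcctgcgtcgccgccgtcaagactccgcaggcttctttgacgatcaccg
Psmb6 (chr11:70525107-70525406, plus strand): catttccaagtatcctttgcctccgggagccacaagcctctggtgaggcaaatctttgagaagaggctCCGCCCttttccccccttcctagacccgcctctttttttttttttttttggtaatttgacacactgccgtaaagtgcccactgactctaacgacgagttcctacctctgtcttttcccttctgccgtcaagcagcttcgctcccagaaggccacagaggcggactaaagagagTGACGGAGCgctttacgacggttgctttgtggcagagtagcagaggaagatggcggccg
Psmg1 (chr16:95990911-95991210, minus strand): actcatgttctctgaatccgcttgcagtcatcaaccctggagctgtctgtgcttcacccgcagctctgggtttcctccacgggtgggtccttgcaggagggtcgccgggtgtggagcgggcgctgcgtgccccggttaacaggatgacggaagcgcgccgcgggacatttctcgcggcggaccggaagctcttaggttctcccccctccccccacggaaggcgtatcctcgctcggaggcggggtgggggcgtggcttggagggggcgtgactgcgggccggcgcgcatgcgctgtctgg

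The Psma7 window holds 6 GC boxes and 1 CCAAT box, some of the GC boxes within a few bases of each other. That of Psma1 holds 2 of each. The Psmb6 window holds the TGACNNNGC core, starting 9 bases before the transcription start, and 1 GC box, while the Psmg1 window holds none of these motifs. Among the 47 member windows the TGACNNNGC core was in 6 (12.8%), against 12.4% of 32851 RefSeq promoter windows of the same length. CCAAT was in 16 member windows (34.0%, against 37.4%), GGGCGG in 25 (53.2%, against 35.7%) and the TATA box TATAAA in 4 (8.5%, against 13.6%), and 10 windows held none of these. A match is only a run of letters and does not show that a factor binds there.

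Levels differed widely between the classes when set per kilobase of transcript, which allows genes to be compared. Psma7 was the most abundant member, at 1073 CPM per kilobase over all libraries, and the alpha subunits ranged down to 96.1 for Psma4. The constitutive beta subunits lay between 35.5 CPM per kilobase for Psmb5, the chymotrypsin-like protease, and 526 for Psmb2, a subunit without a cutting site. In the base, the ubiquitin receptor Psmd4 was highest at 257 and the scaffold Psmd2 lowest at 23.1 CPM per kilobase. In the lid, Psmd8 was highest at 126 and Psmd13 lowest at 0.732 CPM per kilobase, with Psmd3 next at 4.66. Among the chaperones Psmd10 had 85.8 and Psmg2, the partner of Psmg1 in core assembly, 1.24 CPM per kilobase, with a class median of 40.7. The inhibitor Psmf1 had 92.1 and the tested activators 0.628 to 14.1 CPM per kilobase, and the 3 tested immunoproteasome or tissue-specific subunits were under 1.

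**Figure D1:**
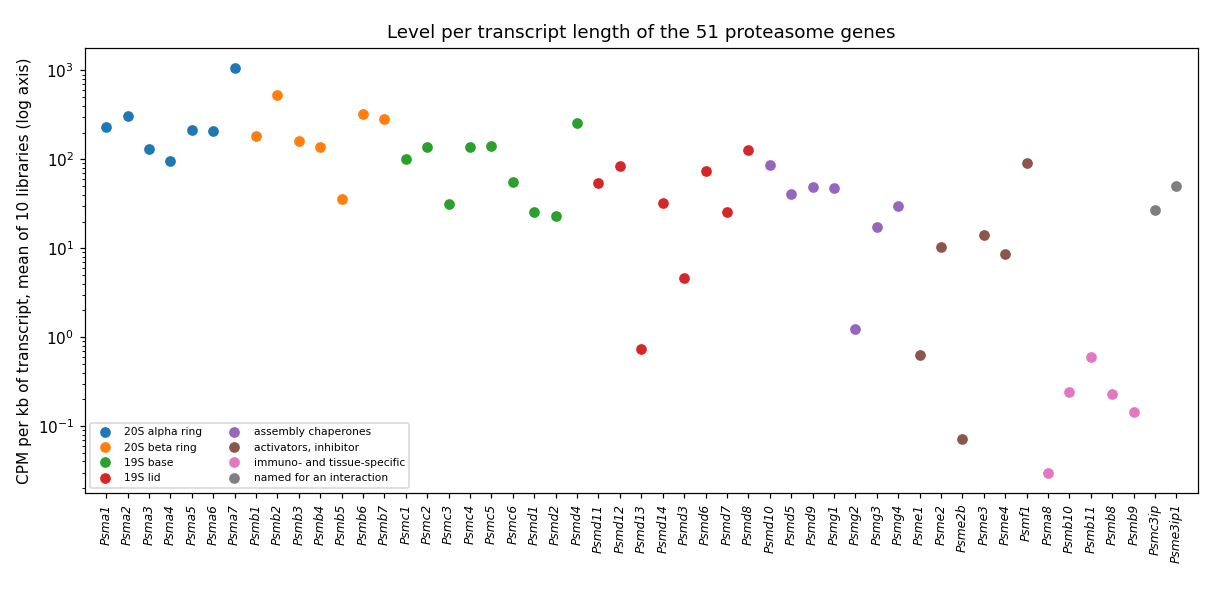
Mean level of each of the 51 proteasome genes, tested or not, over the 10 libraries, in CPM per kilobase of transcript on a log axis, by class. Psma7 is highest at 1073 and the untested Psma8 lowest at 0.0298 CPM per kilobase. The immunoproteasome and tissue-specific subunits all lie under 1, as do the activators Psme1 and Psme2b and the lid subunit Psmd13.

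The first comparison, aged against young, asks which members change with age. The 13 that had fallen are 27.1% of the 48 tested, against 8.06% of all 12315 genes tested that were lower in aged oocytes (9.71% were higher, 17.8% in all). None of the members was higher at an unadjusted p under 0.05 either, where 24 were lower, and DESeq2 called 23 lower and 0 higher. Over all 12315 genes DESeq2 called 1453 lower and 1434 higher. Unadjusted counts over all genes are not given here for any comparison. All aged libraries were below all young libraries for 23 members (47.9%), against 18.8% of all genes, and for 0 members were they all above (21.1% of all genes). The median log2 fold change over the tested members was -0.32, against 0.098 over all genes, and 37 of 48 were below 0.

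Without aged replicate 1 and spermidine replicate 1, 14 members were lower in aged oocytes, including all of the 13. With length and GC trends removed 6 were, all of them among the 13, and the member median was -0.18, against 0.004 over all genes. Over all genes 1288 and 970 were lower in these settings, against 993 as reported. Leaving out single libraries gave 8 without aged replicate 1, 6 without aged replicate 3, 3 without young replicate 1 and 4 without young replicate 3. Lower calls over all genes there were 1021, 560, 437 and 570, in the same order. Psmg1 passed in all 17 other settings and Psma7 in 15 of them.

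**Figure D2:**
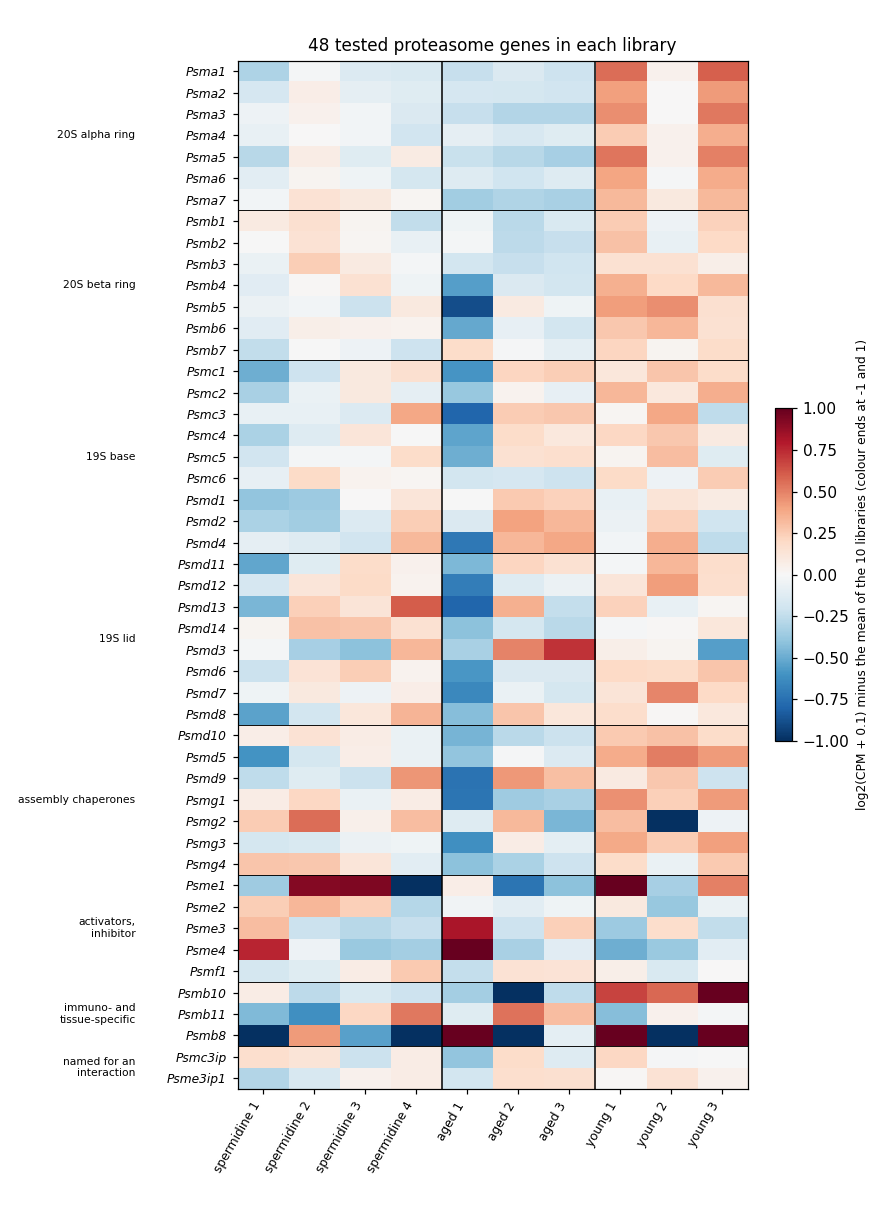
Log2(CPM + 0.1) of the 48 tested genes in each library minus the gene's mean over the 10 libraries, by class, with colours ending at -1 and 1. The alpha subunits are low in all 3 aged libraries and high in young replicates 1 and 3, while many base and lid subunits are low in aged replicate 1 alone.

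All 7 alpha subunits, which form the outer rings and the gate of the core, were lower in every aged library than in every young library. Their fold changes were alike, between -0.66 and -0.35 on the log2 scale with a median of -0.58, and 5 of 7 passed the test. Psma7 had 949, 1070.0, 1035 and 979.7 CPM in the spermidine libraries, 760.3, 785 and 771 CPM in the aged libraries and 1213, 1033 and 1214 CPM in the young libraries. It was 0.669-fold in aged oocytes relative to young ones (log2 fold change -0.58, SE 0.12, edgeR adjusted p = 0.00934), and the aged values lie below all others. With length and GC trends removed it did not pass.

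Psma5, an alpha subunit, had 213, 272.5, 238 and 273.5 CPM in spermidine, 221, 214 and 205 CPM in aged and 376, 267 and 368 CPM in young libraries. The fold change in aged oocytes was -0.66 (log2, SE 0.16, edgeR adjusted p = 0.0157), and -0.39 with length and GC trends removed (edgeR adjusted p = 0.1002). Psma3, another alpha subunit, had 227, 242, 230.4 and 213 CPM in spermidine, 200, 192 and 192 CPM in aged and 324, 236 and 339 CPM in young libraries, with a log2 fold change of -0.62 in aged oocytes (SE 0.15, edgeR adjusted p = 0.0145). In both, young replicate 2 lies well below the other young libraries and inside the range of the spermidine ones. Without young replicate 1 or 3 neither gene passed, and Psma3 did not pass with total count scaling.

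Psma1 had 219.6, 269, 247 and 245 CPM in spermidine, 231, 246 and 235 CPM in aged and 401, 279.7 and 412 CPM in young libraries. Its log2 fold change in aged oocytes was -0.62 (SE 0.16, edgeR adjusted p = 0.0197), and -0.23 with length and GC trends removed (edgeR adjusted p = 0.248). Psma2 had 782, 921, 827 and 807 CPM in spermidine, 781.5, 778 and 771 CPM in aged and 1167, 882.5 and 1178 CPM in young libraries, and its log2 fold change was -0.47 (SE 0.14, edgeR adjusted p = 0.0376). Young replicate 2 was again the lowest young library, and the aged libraries were nearly equal to each other. Without young replicate 1 or 3, neither Psma1 nor Psma2 passed. Psma4, at -0.35 with an adjusted p of 0.0747, and Psma6, at -0.41 with an adjusted p of 0.0549, did not pass edgeR's test.

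The summed level of the alpha subunits was 2853 ± 172 CPM in spermidine (SD, n = 4), 2469 ± 15.1 CPM in aged (n = 3) and 3589 ± 509 CPM in young libraries (n = 3). Among the young libraries replicate 2 was low, at 3001 CPM, against 3864 and 3901 CPM in the other two.

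The beta subunits carry the cutting sites in Psmb5, Psmb6 and Psmb7 and build the inner rings with Psmb1 to Psmb4. All 7 had a log2 fold change below 0 in aged oocytes, with a median of -0.32, and 2 passed. Psmb4, a structural beta subunit, had 149, 163, 179 and 157 CPM in spermidine, 110.1, 146 and 142 CPM in aged and 206, 185 and 202 CPM in young libraries (aged against young -0.58 on the log2 scale, SE 0.14, edgeR adjusted p = 0.0172). Psmb6, the caspase-like protease, had 234.5, 263, 262 and 260.3 CPM in spermidine, 178, 239.5 and 223 CPM in aged and 305, 319 and 282 CPM in young libraries (-0.50, SE 0.14, edgeR adjusted p = 0.0279). For both genes the 3 groups separate without overlap, save that spermidine replicate 1 of Psmb6 lies among the aged values. Psmb4 did not pass without young replicate 1 or 3, and Psmb6 did not pass in 7 of 17 other settings, among them with length and GC trends removed (-0.31) and without aged replicate 1. Psmb5 had a log2 fold change of -0.58 with an SE of 0.22, and at an adjusted p of 0.0867 it did not pass, its aged libraries holding 16.8, 33.1 and 30.05 CPM against 41.5, 42.8 and 34.8 CPM in young ones. Psmb7, the trypsin-like protease, was at -0.11 (SE 0.13).

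**Figure D3:**
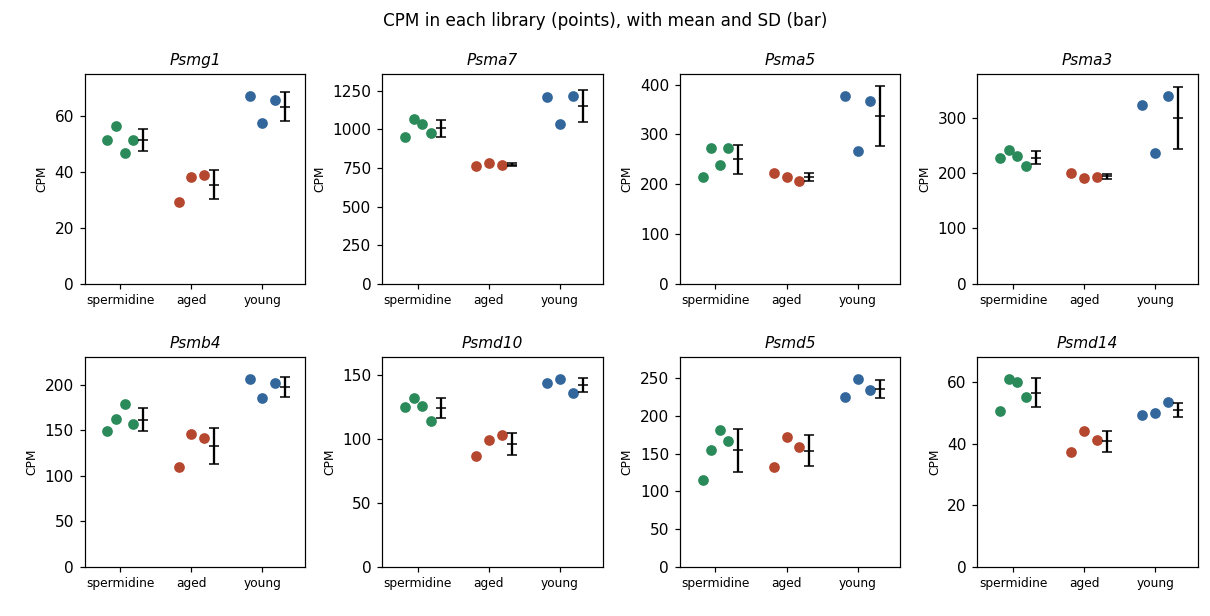
CPM of 8 members in each library, with the mean and SD of each group (spermidine n = 4, aged n = 3, young n = 3), each axis starting at 0. Psmg1 and Psma7 have their 3 aged libraries below all spermidine and all young libraries.

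In the 19S base, made of the ATPases Psmc1 to Psmc6, the scaffolds Psmd1 and Psmd2 and the ubiquitin receptor Psmd4, 0 of 9 passed edgeR's test in aged against young. At an unadjusted p under 0.05, 2 were lower and 0 higher, and DESeq2 called the same number, 2 lower and 0 higher. The median log2 fold change was -0.10, and 0.02 with total count scaling, under which the median of all genes moved to 0.24. Fold changes ran between -0.40 for Psmc2 (SE 0.15, adjusted p = 0.0866) and 0.21 for Psmd2 (SE 0.20). Aged replicate 1 was far below the other aged libraries in several of them: Psmd4 had 306, 299, 286 and 409 CPM in spermidine, 199, 410.5 and 427 CPM in aged and 320.4, 421 and 274 CPM in young libraries. The summed base was 1385 ± 153 CPM in spermidine (SD, n = 4), 1422 ± 334 CPM in aged (n = 3) and 1569 ± 108 CPM in young libraries (n = 3), which overlap. Whether the base differs from the alpha ring in its change was not tested.

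The lid holds the deubiquitinase Psmd14 and structural subunits, and 2 of 8 fell in aged oocytes, with a class median of -0.28. Psmd7, the partner of Psmd14 in the lid, had 38.7, 42.8, 38.7 and 41.9 CPM in spermidine, 25.5, 38.1 and 35.3 CPM in aged and 43.8, 56.3 and 45.9 CPM in young libraries (-0.56, SE 0.17, edgeR adjusted p = 0.0397). Psmd6 had 87.2, 111, 119.6 and 104 CPM in spermidine, 67.5, 91.45 and 91.5 CPM in aged and 116, 115 and 123 CPM in young libraries (-0.50, SE 0.16, edgeR adjusted p = 0.0487). The call of Psmd7 was lost in 10 of 17 other settings and that of Psmd6 in 12, for both among them without aged replicate 1 and with length and GC trends removed. Psmd13 had 0.993 to 2.19 CPM in spermidine, 0.767 to 1.82 CPM in aged and 1.33 to 1.66 CPM in young libraries, and Psmd8, the most abundant lid gene per length, was at -0.08 (SE 0.22).

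**Figure D4:**
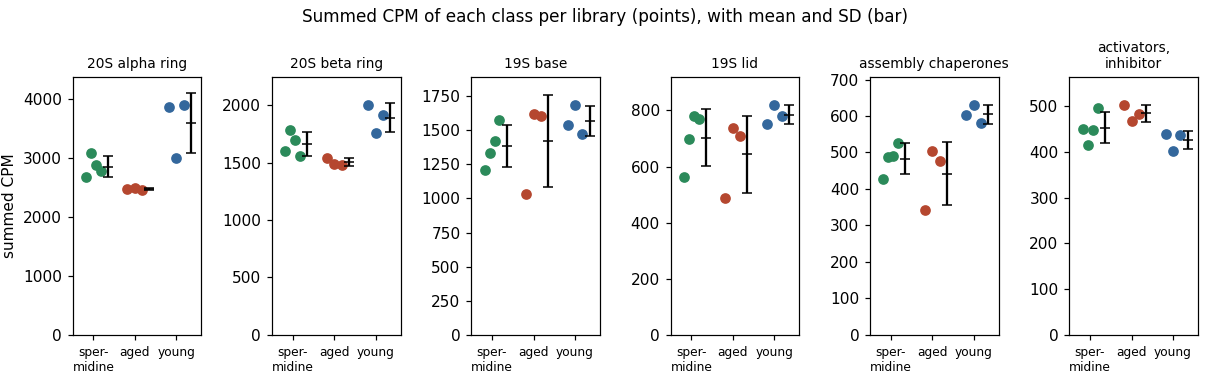
Summed CPM of 6 classes in each library, with mean and SD (spermidine n = 4, aged n = 3, young n = 3), axes from 0. The alpha and beta rings have their aged libraries below all others, while in the base, lid and chaperones aged replicate 1 lies below the other aged libraries.

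Of the assembly chaperones, 3 of 7 fell in aged oocytes, with a class median of -0.54. Psmg1 pairs with Psmg2 to start the alpha ring. It had 51.5, 56.4, 46.8 and 51.4 CPM in spermidine, 29.4, 38.2 and 39.0 CPM in aged and 67.2, 57.6 and 65.8 CPM in young libraries. The groups did not overlap, aged being lowest and young highest. In aged oocytes it was 0.559-fold of young ones (log2 -0.84, SE 0.15, edgeR adjusted p = 0.00421). The log2 value lay between -0.91 and -0.59 over the 17 other settings, with adjusted p-values of 1.454e-06 to 0.0216.

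Psmd10, or gankyrin, and Psmd5 help to build the base ATPase ring. Psmd10 had 125, 132, 126 and 114 CPM in spermidine, 86.25, 99.1 and 103 CPM in aged and 143, 146 and 136 CPM in young libraries (aged against young -0.56, SE 0.125, edgeR adjusted p = 0.0113). Psmd5 had 115, 154, 182 and 166 CPM in spermidine, 132, 172 and 158 CPM in aged and 225, 248 and 234 CPM in young libraries (-0.61, SE 0.17, edgeR adjusted p = 0.0289). The spermidine and aged values of Psmd5 overlap, and both lie below all young values. With length and GC trends removed Psmd10 stood at -0.23 in aged against young (edgeR adjusted p = 0.214) and did not pass, nor did it with total count scaling. Psmd5 lost its call without any one of the young libraries, and without aged replicate 1 or 3.

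The other chaperones did not pass the test. Psmg3 had 12.03, 12.25, 13.1 and 13.2 CPM in spermidine, 8.88, 14.3 and 12.7 CPM in aged and 17.7, 16.3 and 18.15 CPM in young libraries (aged against young -0.54, SE 0.18, edgeR adjusted p = 0.0566). Psmg4, its partner in core assembly, had 18.2, 18.1, 16.3 and 13.9 CPM in spermidine, 11.2, 12.01 and 12.95 CPM in aged and 17.1, 14.3 and 18.01 CPM in young libraries (-0.45, SE 0.16, edgeR adjusted p = 0.0765). Psmd9, a base chaperone, had 103, 113, 106 and 167 CPM in spermidine, 73.8, 166 and 151.5 CPM in aged and 131, 148 and 106.5 CPM in young libraries. Psmg2 lay between 0.503 and 1.88 CPM in all libraries. For these last genes the groups overlap.

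Activators bind the ends of the core in place of the 19S cap: Psme1 and Psme2 form PA28αβ, Psme3 is the nuclear PA28γ and Psme4 is PA200, while Psmf1 inhibits the core. In each comparison 0 of the 5 tested passed with edgeR, also at an unadjusted p under 0.05, and 0 passed with DESeq2. In aged against young, 1 was higher at DESeq2's unadjusted p under 0.05. With length and GC trends removed, 1 was higher at edgeR's unadjusted p under 0.05. The class median there was 0.36, against 0.05 as reported. Psme4 had 86.1, 49.1, 39.3 and 40.0 CPM in spermidine, 134, 40.55 and 47.0 CPM in aged and 36.2, 39.3 and 47.1 CPM in young libraries. Psme3 had 44.85, 31.25, 29.9 and 30.8 CPM in spermidine, 64.1, 31.4 and 42.7 CPM in aged and 28.2, 40.9 and 30.6 CPM in young libraries. In both genes aged replicate 1 was the highest library and spermidine replicate 1 the highest of its group. These 2 libraries also had the strongest rise of counts with transcript length, whose part in these values was not tested.

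Psmf1 had 308, 322, 367.5 and 418 CPM in spermidine, 296, 386 and 384 CPM in aged and 363, 315 and 349 CPM in young libraries, with log2 fold changes of 0.05 in aged against young (SE 0.16) and -0.01 in spermidine against aged (SE 0.15). Psme2 lay between 6.86 and 11.3 CPM and Psme1 between 0.0767 and 1.57 CPM over the 10 libraries. Psme2b, a near-identical copy of Psme2 with which it can share reads, had 3 counts in all spermidine, 5 in all aged and 8 in all young libraries and was not tested.

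The immunoproteasome subunits Psmb8, Psmb9 and Psmb10 replace the cutting subunits in immune cells and under interferon. Psmb10 had 0.301, 0.2175, 0.243 and 0.230 CPM in spermidine, 0.200, 0.0758 and 0.220 CPM in aged and 0.507, 0.467 and 0.667 CPM in young libraries, which rest on 28, 14 and 39 counts per group. It fell in aged oocytes (log2 -1.68, SE 0.43, edgeR adjusted p = 0.0206), with all aged values below all young values. Only its young libraries held enough reads for it to be tested, so being tested and being lower in aged oocytes are not independent. Psmb8 had 0.0301, 0.254, 0.081 and 0 CPM in spermidine, 0.434, 0 and 0.147 CPM in aged and 2.26, 0 and 0.534 CPM in young libraries, and at an adjusted p of 0.211 for aged against young it did not pass edgeR's test. Psmb9 had too few reads to test, with 7 counts in all spermidine, 4 in all aged and 34 in all young libraries, and 1.24 CPM in young replicate 1 against 0.144 and 0.133 CPM in the other young libraries. Both genes were highest in young replicate 1.

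Young replicate 1 was also the library with most RNA of blood and immune markers. The 9 such markers in the table summed to 8.51 to 11.05 CPM in spermidine, 13.3 to 22.7 CPM in aged and 10.95 to 35.2 CPM in young libraries, with the highest sum in young replicate 1, and 2 of the 9 stayed under 1 CPM in every library. The leukocyte marker Ptprc had 4.15 CPM in young replicate 1, against 0 to 0.567 CPM in the other libraries. Among the 8 interferon and antigen processing genes, 4 were tested and 1, the MHC class I light chain B2m, was lower in aged oocytes (log2 -1.39, SE 0.42, edgeR adjusted p = 0.0397). B2m had 29.1, 36.95, 30.5 and 21.0 CPM in spermidine, 32.6, 19.1 and 19.85 CPM in aged and 112, 26.5 and 49.1 CPM in young libraries, again highest in young replicate 1. The part of other cells in these values was not tested. Without young replicate 1, young replicate 3 or aged replicate 2, Psmb10 no longer passed.

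The thymus subunit Psmb11 had 1.775, 1.56, 2.835 and 3.57 CPM in spermidine, 2.24, 3.601 and 3.05 CPM in aged and 1.80, 2.51 and 2.40 CPM in young libraries, and its groups overlap. The testis alpha subunit Psma8 had 9 counts in all spermidine, 5 in all aged and 0 in all young libraries, and 0 counts in the young libraries together allow a level of up to 0.0386 CPM, by counting error only. The remaining genes, Psmc3ip, which encodes the meiotic recombination protein HOP2, and Psme3ip1, which encodes a partner of PA28γ, did not pass in any comparison, with log2 fold changes of -0.16 and -0.01 in aged against young (SE 0.17 and 0.15).

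**Figure D5:**
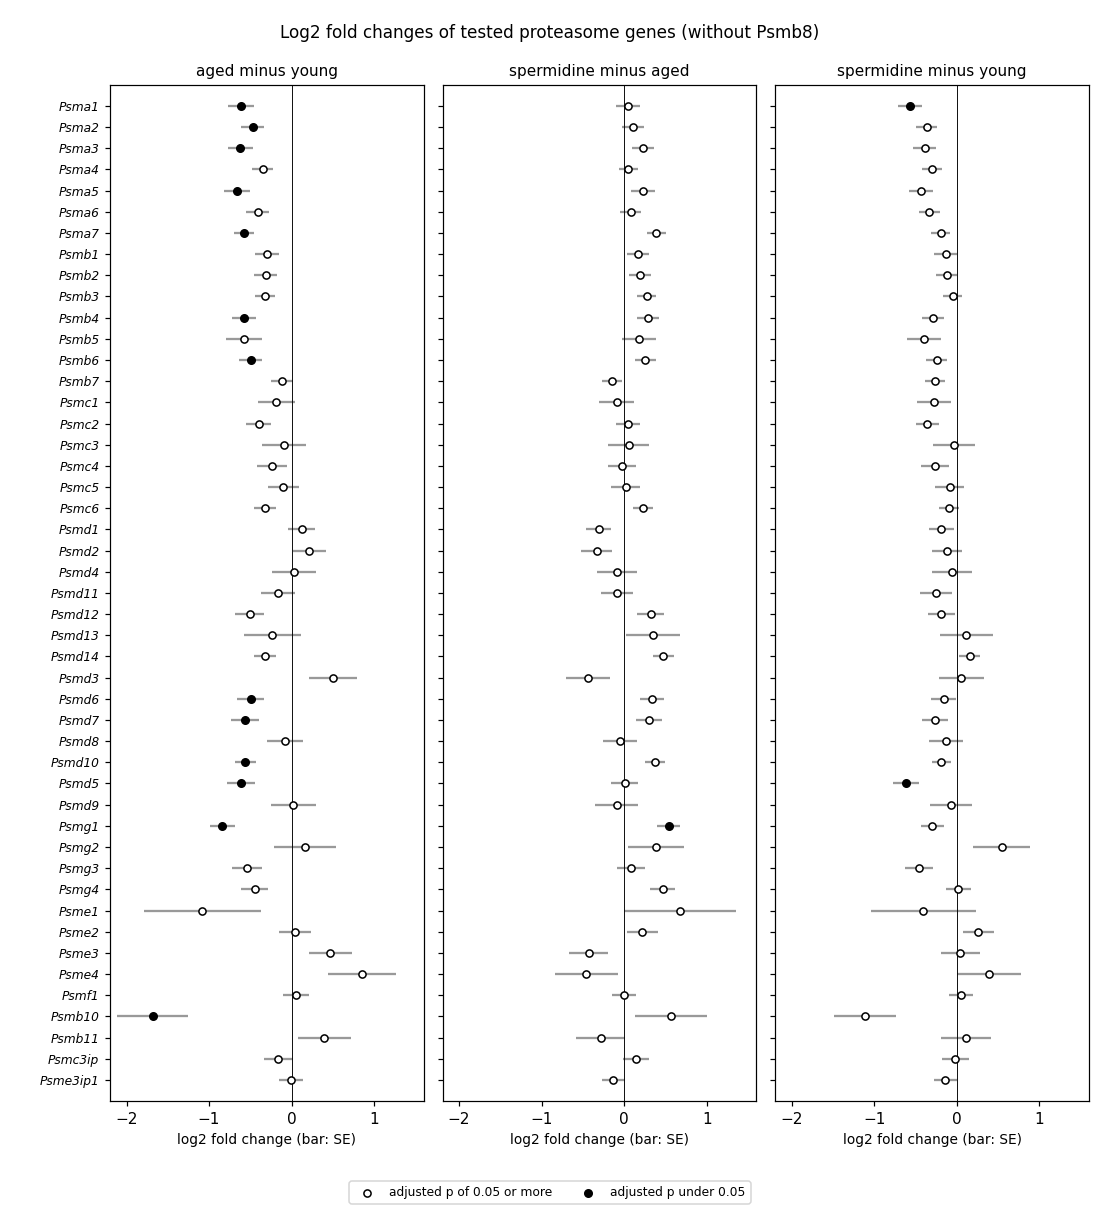
Log2 fold change of each tested member except Psmb8, whose error is too wide for the axis, in the 3 comparisons, with the SE as a bar and filled points for an adjusted p under 0.05. In aged minus young 13 members pass, all left of 0, in spermidine minus aged 1 passes and in spermidine minus young 2 pass.

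The second comparison, spermidine against aged, asks which members differ between the spermidine and the aged group. It uses the same aged libraries as the first, so the fold changes of the 2 comparisons are not independent of each other. Of the members, 1 of 48 (2.1%) had risen and 0 had fallen by edgeR, against 2.42% higher and 2.44% lower among all genes tested (4.86% in all), so the share called is near the background. At an unadjusted p under 0.05, 7 members were higher and 0 lower, and DESeq2 called 5 higher and 0 lower. Over all 12315 genes DESeq2 called 653 higher and 713 lower. All spermidine libraries were above all aged libraries for 11 members (22.9%), against 11.4% of all genes, and below them for 0, against 8.49%. The median log2 fold change was 0.09 over the members and -0.03 over all genes.

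Psmg1 was the member that rose, to 1.45-fold of aged oocytes (log2 0.54, SE 0.14, edgeR adjusted p = 0.0498), and its 4 spermidine values lie above its 3 aged values. It kept this call in 3 of 18 other settings, with adjusted p-values of 0.00777 to 0.199 over them and a log2 value of 0.30 to 0.61. Leaving out any aged library, or spermidine replicate 1, 2 or 3, ended it. Relative to young oocytes it stood at -0.30 (SE 0.14, edgeR adjusted p = 0.25), which did not pass.

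The next members by p did not pass edgeR's test. Psmd14, the deubiquitinase of the lid, had 50.5, 60.9, 60.1 and 55.15 CPM in spermidine, 37.3, 44.0 and 41.25 CPM in aged and 49.25, 49.9 and 53.6 CPM in young libraries. It stood at 0.47 in spermidine against aged (SE 0.13, edgeR adjusted p = 0.0527) and at -0.32 in aged against young (SE 0.13, edgeR adjusted p = 0.116). Its spermidine libraries were all above its aged libraries. Without aged replicate 1 and spermidine replicate 1, Psmd14 was the member called higher and Psmg1 was not. Psma7 was at 0.385 (SE 0.115, edgeR adjusted p = 0.0706), Psmd10 at 0.37 (SE 0.12, edgeR adjusted p = 0.0831) and Psmg4 at 0.46 (SE 0.15, edgeR adjusted p = 0.0936), and DESeq2 called these 3 with Psmg1 and Psmd14. Without spermidine replicate 4, edgeR called 3 members higher, Psmd14, Psmg1 and Psmg4. Over all genes 537 were higher in that setting, against 298 as reported.

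By class, the median log2 fold changes in spermidine against aged were 0.10 for the alpha subunits, 0.19 for the beta subunits, -0.03 for the base (0.01 with total count scaling), 0.31 for the lid, 0.37 for the chaperones and -0.01 for the activators and inhibitor (0.03 with total count scaling). With length and GC trends removed the alpha median was -0.02 and the lid and chaperone medians 0.12 and 0.05, 0 members were higher and 1, Psmb7, was lower. Over all genes 304 were higher and 442 lower in that setting. Across the 48 members the log2 fold change of this comparison fell with transcript length (Pearson r = -0.517), and that of aged against young rose with it (r = 0.412), as a description over genes of the same libraries.

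The third comparison, spermidine against young, shares its libraries with the other two. The alpha subunit Psma1 and the chaperone Psmd5 were lower in spermidine oocytes, 2 of 48 (4.2%) against 1.92% of all genes lower, and 0 were higher, against 3.44% of all genes (5.36% in all). At an unadjusted p under 0.05, 12 were lower and 0 higher, and DESeq2 called 6 lower and 0 higher. Over all 12315 genes DESeq2 called 520 lower and 579 higher. Psma1 was 0.673-fold of young oocytes (log2 -0.57, SE 0.145, edgeR adjusted p = 0.0401) and Psmd5 0.655-fold (-0.61, SE 0.16, edgeR adjusted p = 0.0441). Their spermidine values all lie below their young values, and overlap their aged values. Without young replicate 1 or 3, or spermidine replicate 1, 2 or 4, 0 members passed, and without young replicate 2 the count was 4, all alpha subunits. Without spermidine replicate 3 it was 1. Lower calls over all genes, 236 as reported, were 206 without young replicate 2 and 180 without spermidine replicate 3. They were 118 to 218 in the settings with 0 members.

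All spermidine libraries were below all young libraries for 13 members (27.1%), against 8.92% of all genes, and above them for 0, against 12.1%. The median over the members was -0.19, against 0.045 over all genes, with -0.37 for the alpha subunits, -0.24 for the beta subunits, -0.12 for the base (0.04 with total count scaling), -0.14 for the lid (0.02 with total count scaling) and -0.19 for the chaperones. Total count scaling gave a median of -0.01 over the members and 0.23 over all genes. All 51 members summed to 7712 ± 421 CPM in spermidine (SD, n = 4), 7151 ± 530 CPM in aged (n = 3) and 9054 ± 488 CPM in young libraries (n = 3).

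Outside the members, 29 other genes of the ubiquitin and proteasome pathway were tested, chosen for their role. In aged oocytes 3 were higher (10.3%, against 9.71% of all genes) and 2 lower (6.9%, against 8.06% of all genes) than in young ones, which are shares near the background, with a median log2 fold change of 0.31, against 0.098 over all genes. The lower ones were Pomp, which completes the core (-0.52, SE 0.14, edgeR adjusted p = 0.0273), and the lid subunit Sem1 (-0.50, SE 0.15, edgeR adjusted p = 0.0401). The higher ones were the ubiquitin-activating enzyme Uba1 (1.02, SE 0.20, edgeR adjusted p = 0.0066), the deubiquitinase Usp14, which binds the base (0.54, SE 0.14, edgeR adjusted p = 0.0222), and Nploc4, a cofactor of the segregase Vcp (0.91, SE 0.275, edgeR adjusted p = 0.0402).

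Pomp had 96.5, 100.7, 86.1 and 81.6 CPM in spermidine, 72.9, 60.1 and 65.5 CPM in aged and 106, 87.6 and 90.9 CPM in young libraries, with the aged values below all others. Uba1 had 81.1, 53.8, 56.5 and 63.7 CPM in spermidine, 126, 85.05 and 81.1 CPM in aged and 44.2, 51.1 and 48.6 CPM in young libraries, with aged replicate 1 highest and all aged values above all young ones. In spermidine against aged, 1 of the 29 passed and was higher, the transcription factor Nfe2l2, a share of 3.4% against 2.42% of all genes. Nfe2l2 had 5.23, 5.87, 6.84 and 5.87 CPM in spermidine, 3.07, 4.055 and 3.01 CPM in aged and 4.47, 4.70 and 6.94 CPM in young libraries (spermidine against aged 0.82, SE 0.21, edgeR adjusted p = 0.0467). Its relative Nfe2l1, the main activator of proteasome genes when the protease is inhibited, had 7.03 to 9.14 CPM in spermidine, 7.125 to 8.94 CPM in aged and 5.07 to 7.61 CPM in young libraries and did not pass.

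The authors' deposited table gives a q-value for each gene. In it, 13 members had a q-value under 0.05 in aged against young, all lower, of which 12 were among the 13 called here, with Psmb9 in place of Psmb10. The authors' deposited table holds 1 such member for spermidine against aged, Psmg1, at a log2 fold change of 0.52 and a q-value of 0.0447.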

How the data were processed

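The 10 mouse oocyte libraries were grouped by title into 4 spermidine, 3 aged and 3 young. Values are the expected count for each of 18493 genes as deposited by the authors, with 15.9% to 16.7% of values per library not whole. The authors' deposited log2 fold changes, p-values and q-values were used only for comparison. Per the submitters' processing notes, which give no role or order, the tools were RSEM 1.3.1, Bowtie2 2.3.4.3 and DESeq2 1.4.5, and the build mm9. How strand was treated in counting is not given in the sources used here, and reads of overlapping or antisense genes may be mixed.

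Expected counts were rounded to whole numbers and analysed in edgeR 4.0.16 (R 4.3.3): filterByExpr with a minimum count of 10, TMM scaling, and 1 quasi-likelihood model (robust dispersion) of the 3 group means, which tested 12315 genes. The Benjamini-Hochberg method adjusted p over these genes in each comparison, with a threshold of 0.05. SEs are those implied by the F statistic. The code was tested on simulated data. No library pair agreed within sampling noise. Depth ran between 24222201 and 28730822 counts, and low genes are the least precise. A floor of 3 counts expresses counting error alone, as no molecular identifiers are named.

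The members, roles and lists were chosen with earlier results of these data known. Named are every member past the threshold, the highest and lowest member per length in each class, all detected immunoproteasome, activator and chaperone genes, and the other pathway genes past the threshold. Psmb5, Psmb7, Psmc2, Psma6, Psmd14, Psmd3, Fshr, Nr5a2, Cyp19a1, Cyp11a1, B2m, Ptprc, Pecam1, Pomp and the Nfe2l genes were described in addition, some chosen after their values were seen. Of 30 other pathway genes listed, 29 were in the table and Paaf1 was not analysed here. Transcript lengths and GC content came from GENCODE M21 transcripts on GRCm38, not the authors' build, and were found for 97.4% of genes tested. Promoters came from RefSeq. Alternatives were RLE factors, total count scaling, no filter, at least 10 CPM in 3 libraries, DESeq2 1.42.0, 2-group fits, no robust dispersion, a replicate block, length and GC offsets (splines with 4 degrees of freedom), and leaving out libraries. Plots used matplotlib 3.10.9 under Python 3.11.15.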

Additional observations from a re-analysis of the deposited data

Results flagged for a closer look

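In the spermidine group of 4, a single library stood far from the other 3 for 5 of the 48 tested members, by the gap to its nearest neighbour as a share of the group's range. Chance marks about 1 in 20 groups in this way. Spermidine replicate 4 was high for the ATPase Psmc3 (ratio 0.889), the ubiquitin receptor Psmd4 (0.839) and the base chaperone Psmd9 (0.847). Spermidine replicate 1 was low for the protease Psmb6 (0.895) and high for the activator Psme3 (0.911). These 2 libraries differed in their trends over genes: counts rose with transcript length in replicate 1 (r = 0.137) and with GC content in replicate 4 (r = 0.193), and the part of these trends in the values was not tested. The 3 libraries of the aged and of the young group are too few for this check.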

How the results depend on the processing

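The members called in aged against young, 13 as reported, were 7 with total count scaling, 23 with DESeq2, 6 with length and GC offsets and 4 with the replicate block and these offsets together, an alternative added after seeing the data, and 3 to 11 when leaving out each aged or young library in turn. The median over the members, -0.32, was -0.18 with total count scaling, -0.18 with the offsets and -0.19 with block and offsets. That of all genes, 0.098, was 0.24, 0.004 and -0.006. Lower calls over all genes, 993 as reported, were 405 with total count scaling, 1453 with DESeq2 and 970 with the offsets. They were 1079 with block and offsets and 437 to 1021 when leaving out each aged or young library. For spermidine against aged, 1 as reported, the member count was 0 with RLE factors, total count scaling, no filter, 2-group fits, no robust dispersion, the replicate block, and block and offsets, 3 with at least 10 CPM, 5 with DESeq2 and 0 to 3 when leaving out a spermidine or aged library. The member median, 0.09, was -0.026 with block and offsets. Higher calls over all genes, 298 as reported, were 65 with 2-group fits, 234 of 5784 with at least 10 CPM and 653 with DESeq2. They were 42 to 537 when leaving out a spermidine or aged library. For spermidine against young, 2 as reported, the member count was 1 with total count scaling, 2-group fits, the replicate block, the offsets, and without aged replicate 1 and spermidine replicate 1, 0 with at least 10 CPM, 6 with DESeq2 and 0 to 4 when leaving out a spermidine or young library, and the member median, -0.19, was -0.012 with total count scaling. Lower calls over all genes, 236 as reported, were 98 of 5784 with at least 10 CPM and 520 with DESeq2. They were 118 to 218 when leaving out a spermidine or young library. The causes were not tested.

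Total count scaling moved the median of all genes in aged against young to 0.24, and its calls over all genes to 1236 higher and 405 lower, against 1196 and 993 as reported. Of 685 values of single members under the alternatives, 575 stayed on their side of the threshold, 101 no longer passed and 9 newly passed. Most of the 575 had not passed as reported, and all 101 losses fell on the 13, 1 and 2 calls of the 3 comparisons. These calls were kept in as few as 3 of 18 other settings (Psmg1, spermidine against aged) and as many as 17 of 17 (Psmg1, aged against young). Among values that passed in either setting 0 reversed. Some that passed in neither changed sign, among them Psma1 in spermidine against aged (0.045 as reported, -0.286 with length and GC offsets). Whether replicate numbers pair the libraries cannot be decided from so few libraries per group. Same-numbered deviations correlated at 0.18, 0.173 and -0.261 between aged and young. They correlated at 0.377, -0.076 and 0.059 between spermidine and aged, and at -0.076, -0.176 and -0.039 between spermidine and young. The 0.377 was the highest between spermidine and aged, against 0.331 for spermidine replicate 4 with aged replicate 2. The replicate block alone left the aged against young count within 1.5 times. In spermidine against aged it took the member count from 1 to 0. Its calls over all genes there were 434 higher and 564 lower, against 298 and 300 as reported. Depth limits Psmb8, Psmb9, Psmb10, Psma8 and Psme2b, which had few counts in each group.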
